A study of Mus musculus with 11 samples.

Results

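The Comma Dβ line was profiled as 1 library of the 11 in the series, and it was compared here with the 3 libraries of freshly sorted basal cells, so that 4 libraries entered the comparison. The member libraries were chosen by label alone. The Comma Dβ library came from the cultured CommaD-βGeo line, labelled as Balb/c, wild type and derived from the mammary gland at mid-pregnancy, and it was grown under maintenance conditions before RNA was taken. The Basal libraries came from CD24+CD29hi cells, the fraction enriched for mammary stem cells, sorted from the glands of wild-type FVB/N virgin females aged 8 weeks. The other 7 libraries were 3 of luminal progenitor-enriched cells (LP), 3 of mature luminal cell-enriched cells (ML) and 1 of mammospheres grown from sorted basal cells for a week in suspension.

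The basal layer of the mammary duct holds contractile myoepithelial cells together with stem cells. It lies on a basement membrane, binds it through integrins, and carries keratins such as Krt5 and Krt14 under the transcription factor Trp63. Epithelial cells are joined by E-cadherin at adherens junctions and by desmosomes. When epithelial cells take on mesenchymal features, they typically lower these junction genes and raise fibronectin, vimentin and factors of the Zeb, Snail and Twist families. Comma Dβ is a long-established mammary line whose cells can rebuild mammary epithelium after transplantation, which is why it is used as a model of mammary progenitors.

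Counting depth was 51368625 to 57160817 reads assigned to genes in the Basal libraries and 24285202 in the Comma Dβ library. Levels are given as CPM, each count as a share of its library total, scaled by the trimmed mean of M-values (TMM) over the 4 libraries, and differences as log2 CPM in Comma Dβ minus the mean of the 3 Basal libraries. With 1 Comma Dβ library there was no test and no p-value. A gene was called higher or lower when Comma Dβ lay over 2 log2 units, or 4-fold, past every Basal library. The Basal libraries themselves had a median SD of 0.24 log2 units per gene, and 95% of genes had an SD below 0.69. Basal 1 was in batch 1, Basal 2 and 3 were in batch 2 and Comma Dβ was in batch 3, so that the line, its culture, its strain, its origin in pregnancy and its batch cannot be told apart. The sample name of Basal 1 contains "p53" although its genotype label reads wild type. Trp53 itself was at 121, 124 and 99.8 CPM in Basal 1, 2 and 3 and at 148 CPM in Comma Dβ, so that Basal 1 lay between the other libraries. Xist, the RNA of the inactive X chromosome, was at 834, 683 and 1295 CPM in the Basal libraries and at 1549 CPM in Comma Dβ.

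Of the 15575 genes with over 0.5 CPM in at least 1 of the 4 libraries, 826 were called higher in Comma Dβ, a share of 5.30%, and 2076 were called lower, a share of 13.3%. Lower calls outnumbered higher calls by 2.51 to 1, a ratio that moved with the settings, since scaling by library size only gave 1041 higher and 1791 lower calls and a filter in 3 of the 4 libraries gave 432 and 1825, while the median difference over all genes was 0.01. Comma Dβ lay above every Basal library for 42.0% of genes and below every Basal library for 42.7%. Without Basal 1 the calls were 832 higher and 2200 lower. The mammosphere library, which shares the Basal controls, had 6.59% of genes called higher and 6.58% called lower by the same rule on a scale over all 11 libraries.

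**Figure D1:**
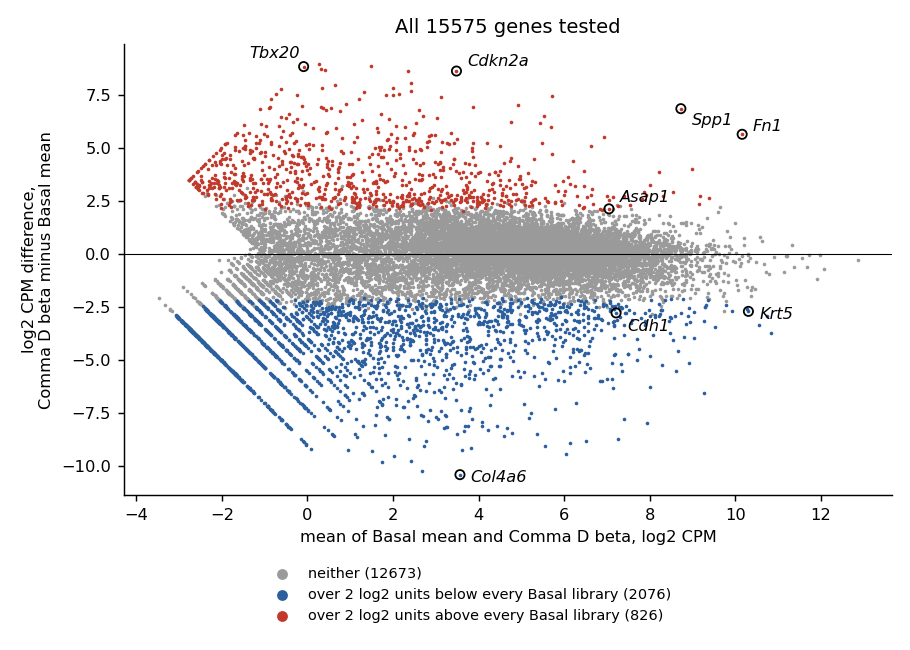
Each point is 1 of the 15575 genes tested, with the mean of the Basal mean and Comma Dβ (log2 CPM) on the x axis and the log2 CPM difference, Comma Dβ minus the Basal mean, on the y axis. Red points (826) lay over 2 log2 units above every Basal library and blue points (2076) below; circled genes are named in the text, with Asap1 at the edge of the red points at 2.14 and Col4a6 at the bottom at -10.41.

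The 4 genes that mark this comparison spanned matrix, signalling, transcription and adhesion. Fn1, which encodes the matrix glycoprotein fibronectin, was at 135, 159 and 194 CPM in Basal 1, 2 and 3 and at 8132 CPM in Comma Dβ, a 50.1-fold difference from the Basal mean. It took 0.967% of all reads in Comma Dβ, more than any other gene of that library, against 0.0131 to 0.0178% in the Basal libraries. Mammospheres stood at 1523 CPM and LP and ML at 177 and 63.0 CPM on the 11-library scale, which is used below for every value outside the 4 libraries, so Comma Dβ had the highest level of the series.

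Tbx20, a T-box factor known from heart development, had no read in any Basal library and 583 reads in Comma Dβ, or 20.2 CPM. Against a limit of 3 reads in each Basal library this was at least 346-fold higher. LP and mammospheres gave 0.018 and 0.0449 CPM and ML none, so Tbx20 reads came almost wholly from the line. Asap1, which encodes an Arf GTPase-activating protein that acts at the cytoskeleton and focal adhesions, was at 63.1, 57.1 and 69.1 CPM in the Basal libraries and at 278 CPM in Comma Dβ. Its difference was 2.14 with a Basal SD of 0.14, and its distance to the nearest Basal library, 2.00, sat at the threshold. The distance was 1.94 without Basal 1 and 1.9978 without Basal 2, and it was 1.98 with DESeq2 size factors or a filter of over 1 CPM, and 1.9977 with no filter but 1 count. The call thus depended on the scaling, the filter and the libraries used, while the difference was 2.06 to 2.47 in these and the other settings run. Cdh1, which encodes E-cadherin, was at 375, 309 and 502 CPM in the Basal libraries and at 56.7 CPM in Comma Dβ, 6.98-fold below the Basal mean. LP and ML stood at 1135 and 1107 CPM (means of 3), so that Comma Dβ had the lowest Cdh1 level of the groups.

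**Figure D2:**
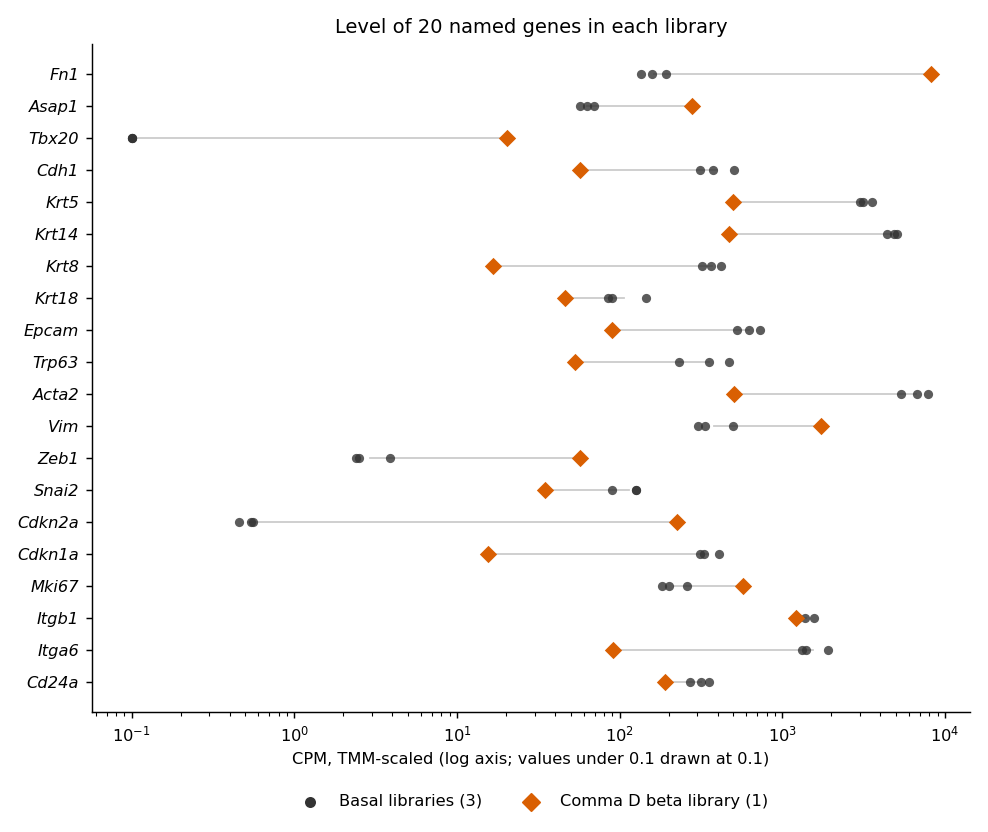
Level of 20 named genes in each Basal library (grey points, 3) and in the Comma Dβ library (orange diamond, 1), as TMM-scaled CPM on a log axis with values under 0.1 drawn at 0.1. Fn1, Tbx20, Cdkn2a and Zeb1 lay far to the right of the Basal points, Krt8, Cdkn1a and Itga6 far to the left, and Itgb1 stood just left of them.

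Proliferation genes were higher as a group, but by less than the threshold. Of 25 mitosis genes, all 25 lay above every Basal library (42.0% of all genes did), none passed 4-fold, and the median difference was 1.5. The differences ran from 0.42 for Ccnb2 to 2.55 for Plk1. Mki67, the standard proliferation marker, was at 260, 182 and 200 CPM in the Basal libraries and at 574 CPM in Comma Dβ. Plk1, the kinase that drives entry into and passage through mitosis, was at 20.8, 15.5 and 7.07 CPM against 77.6 CPM. LP and ML were far lower, with Mki67 at 38.7 and 41.5 CPM, and the mammosphere library was lower than Basal for this list, with a median of -1.08. Among the Basal libraries, Basal 1 had the highest summed level of the mitosis list, 1772 CPM, and Basal 3 the lowest, 1209 CPM, with Comma Dβ at 3915 CPM. Without Basal 1, 3 mitosis genes passed the threshold.

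Of 26 DNA replication genes, 22 lay above every Basal library (42.0% of all genes did) and the median was 1.03. Only 1 was called higher, a share of 3.85% against 5.30% of all genes. The called gene was Cdc6, which loads the replicative helicase at origins, at 4.75, 6.17 and 4.31 CPM in the Basal libraries and at 28.7 CPM in Comma Dβ. The helicase subunits Mcm2 to Mcm7 had differences of 0.60 to 1.49. Pcna, the sliding clamp of the polymerase, was at 129, 136 and 83.5 CPM in Basal and at 89.3 CPM in Comma Dβ, inside the Basal range. 

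The promoters of these genes were scanned for letters known from cell cycle genes, on both strands of the 250 bases before and 50 after each RefSeq start. An E2F-type site, written as TTTCCCGC, TTTGGCGC, TTTCGCGC or TTTGCCGC, was present in 8 of 24 promoters of the replication list (33.3%), in 1 of 21 of the mitosis list (4.76%) and in 2.26% of all 32851 promoters. The letters TTTGAA, the core of the cell cycle homology region, were in 16 of 21 promoters of the mitosis list (76.2%) against 17.9% of all promoters. These windows covered 21 of the 26 replication genes and 20 of the 25 mitosis genes. The promoters of Mcm6 and Cdk1 are shown (RefSeq, GRCm38.p6), the first because it holds 3 E2F-type sites, of which a pair overlap, and the second because it holds both kinds, with the matching letters in capitals. They lie at chr1:128359656-128359955 and chr10:69352863-69353162, both on the minus strand.
Mcm6: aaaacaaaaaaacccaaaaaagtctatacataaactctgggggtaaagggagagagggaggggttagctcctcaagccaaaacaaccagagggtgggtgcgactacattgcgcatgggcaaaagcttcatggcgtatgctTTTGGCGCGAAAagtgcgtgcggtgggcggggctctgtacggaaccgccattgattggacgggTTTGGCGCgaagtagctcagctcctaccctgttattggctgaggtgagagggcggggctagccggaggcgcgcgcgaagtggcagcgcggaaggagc
Cdk1: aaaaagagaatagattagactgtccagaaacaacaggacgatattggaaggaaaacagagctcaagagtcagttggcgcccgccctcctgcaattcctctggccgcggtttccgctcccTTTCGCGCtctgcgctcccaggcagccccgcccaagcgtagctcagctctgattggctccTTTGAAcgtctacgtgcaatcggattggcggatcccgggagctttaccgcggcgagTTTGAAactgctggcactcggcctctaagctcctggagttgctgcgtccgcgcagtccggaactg
Mcm6 was at 112, 121 and 63.8 CPM in the Basal libraries and at 172 CPM in Comma Dβ. Cdk1, the kinase of mitotic entry, was at 46.9, 43.7 and 31.3 CPM in Basal and at 149 CPM in Comma Dβ.

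The inhibitors that restrain the cell cycle differed in opposite directions. Cdkn2a, the locus of p16 and p19Arf, was at 0.54, 0.45 and 0.55 CPM in the Basal libraries and at 224 CPM in Comma Dβ, 433-fold above the Basal mean. Its neighbour Cdkn2b, which encodes p15, was at 0.76, 0.45 and 0.43 CPM against 64.2 CPM. The gene counts do not separate the p16 and p19Arf transcripts. Cdkn1a, which encodes p21 and is the best known target of p53, went the other way, from 329, 409 and 312 CPM to 15.5 CPM, and Cdkn1c, which encodes p57, from 15.0, 14.9 and 16.9 CPM to 1.04 CPM. Of the 18 genes of the list, 3 were called higher, with Cdk6 as the third at 5.92, 6.66 and 7.52 CPM against 35.9 CPM, and 2 lower. The lower share of this list, 11.1%, was near the 13.3% of all genes. Among 18 p53 target genes, Cdkn1a alone was called, 10 lay below every Basal library and 6 above, and the median was -0.88. The 1 lower call of 18 was a smaller share than the 13.3% of all genes, and the counts below and above were near the 42.7% and 42.0% of all genes. Mdm2, the ligase that p53 induces, was at 185, 161 and 209 CPM in Basal and at 97.0 CPM in Comma Dβ. Myc was at 260, 410 and 239 CPM in Basal and at 105 CPM in Comma Dβ, a difference of -1.49 that missed the threshold.

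Interstitial matrix genes were called higher more often than all genes. Of 35 genes, 14 were called higher and 5 lower, or 40% and 14.3% against 5.30% and 13.3% of all genes. The lower calls were thus near the share of all genes. The median was 1.47, and 19 genes lay above every Basal library and 14 below every one, while 42.7% of all genes lay below every one. Spp1, which encodes osteopontin, was at 37.3, 42.3 and 37.9 CPM in the Basal libraries and at 4582 CPM in Comma Dβ. Lox, the enzyme that crosslinks collagen and elastin, was at 3.30, 4.29 and 7.62 CPM against 443 CPM, and its relative Loxl1 at 6.68, 9.30 and 11.5 CPM against 105 CPM. Thbs2, a matricellular thrombospondin, was at 13.5, 14.9 and 28.1 CPM in Basal and at 818 CPM in Comma Dβ. The Basal values of Lox and Thbs2 spread by about their own lowest value, and the line lay well outside that spread. The fibrillar collagens differed less: Col1a1 was at 93.0, 127 and 151 CPM against 823 CPM, Col1a2 at 108, 142 and 164 CPM against 1036 CPM, and Col3a1 at 187, 296 and 344 CPM against 1653 CPM. Per length, Fn1 stood at 978 and Col1a1 at 175 FPKM (CPM per kilobase of gene length) in Comma Dβ, against 19.5 and 26.3 in the Basal mean, so that the order of these genes was turned.

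The 5 interstitial genes called lower included Eln, which encodes elastin, at 831, 896 and 653 CPM in the Basal libraries and at 2.15 CPM in Comma Dβ. Its crosslinking enzymes Lox and Loxl1 were thus high where elastin itself was nearly absent. The small proteoglycan Bgn was at 264, 386 and 356 CPM against 26.4 CPM, and the matricellular protein Postn at 1907, 2809 and 2772 CPM against 385 CPM. Thbs1, in contrast to Thbs2, was at 4673, 5509 and 6414 CPM in Basal and at 3381 CPM in Comma Dβ, which placed it among the most abundant messages in all 4 libraries. In mammospheres the interstitial list had a median of 1.39, close to that of the line, with Thbs2 at 536 CPM, Lox at 200 CPM and Spp1 at 5368 CPM. LP had more Spp1 than the line, with 9964 CPM.

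Basement membrane genes were lower throughout. All 23 genes lay below every Basal library (42.7% of all genes did), and the median was -2.41. In mammospheres the median of this list was -1.34. None was called higher and 14 were called lower in Comma Dβ, or 60.9% against 13.3% of all genes. Of the 23, 2 passed the level filter through Basal alone and could only come out lower. Col4a6, a type IV collagen chain, had the largest negative difference of all 15575 genes, at 359, 483 and 477 CPM in the Basal libraries and at 0.28 CPM, or 8 reads, in Comma Dβ. Col4a5, which lies head to head with it on the X chromosome, was at 620.5, 696 and 784 CPM in Basal and at 153 CPM in Comma Dβ, so that the pair differed in extent. Col4a1 and Col4a2, the main type IV chains, were at 4546, 4689 and 4929 CPM against 621 CPM and at 2965, 3091 and 3024 CPM against 499 CPM. Lama1 was at 1146, 1060 and 1037 CPM in Basal and at 2.01 CPM in Comma Dβ. Lama3 and Lamb3, laminin chains that help anchor basal epithelia, were lower together, with Lama3 at 1049, 1267 and 1455 CPM against 15.8 CPM and Lamb3 at 812, 1037 and 922 CPM against 35 CPM. Hspg2, which encodes perlecan, differed least, at 1060, 1140 and 1120 CPM in Basal and at 891 CPM in Comma Dβ.

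Among 19 integrin genes, 7 were called lower and 2 higher, or 36.8% and 10.5% against 13.3% and 5.30% of all genes. Of the 19, 2 passed the level filter through Basal alone and could only come out lower. Itga6, a laminin receptor chain often used to sort basal cells, was at 1317, 1402 and 1908 CPM in the Basal libraries and at 91.2 CPM in Comma Dβ. Its partner Itgb4 was at 219, 303 and 231 CPM in Basal and at 227 CPM in Comma Dβ, inside the Basal range. Itga9, Itga2 and Itga8 were lower still, with Itga9 at 101, 138 and 89.1 CPM against 0.42 CPM. Itgb1, which encodes the CD29 of the sort, was at 1374, 1243 and 1572 CPM against 1214 CPM, and Itgb3, which encodes CD61, at 73.7, 66.9 and 76.9 CPM against 41.5 CPM. Itga5, the main fibronectin receptor chain, did not follow Fn1: it was at 179, 162 and 440 CPM in Basal and at 202 CPM in Comma Dβ. Of 23 matrix proteases and their inhibitors, 5 were called higher and 2 lower, or 21.7% and 8.70%. The lower share was thus under the 13.3% of all genes. Of the 23, 1 passed the filter through Comma Dβ alone and 1 through Basal alone. Timp1 was at 18.3, 16.6 and 35.3 CPM in Basal and at 220 CPM in Comma Dβ, and Mmp9 at 0.65, 0.29 and 0.59 CPM against 16.8 CPM. The abundant proteases Mmp2 and Mmp14 had differences of -0.16 and 0.20.

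Epithelial adhesion genes were lower, though unevenly. Over 36 genes of adherens junctions, tight junctions and desmosomes, 10 were called lower and 1 was called higher. These shares were 27.8% and 2.78% against 13.3% and 5.30% of all genes. Of the 36, 26 lay below every Basal library (42.7% of all genes did). The median was -1.23 with an SD of 0.05 among the Basal medians. Epcam, an adhesion gene that was only grouped here with the adherens junction list, was at 621, 524 and 727 CPM in the Basal libraries and at 89.7 CPM in Comma Dβ. Cdh3, the P-cadherin of basal cells, was at 352, 368 and 341 CPM against 58.5 CPM. Ctnnb1, the β-catenin that links cadherins to the cytoskeleton, was at 1307, 1335 and 1213 CPM against 641 CPM and was not called, and Ctnnd1 stood at 282, 333 and 331 CPM against 390 CPM. At desmosomes, Dsp was at 1349, 1311 and 1900 CPM in Basal and at 162 CPM in Comma Dβ, and Dsg2 at 179, 201 and 195 CPM against 16.2 CPM. Pkp2, a plakophilin, was the exception, at 1.72, 2.17 and 1.96 CPM against 26.1 CPM. Of the 16 tight junction and polarity genes, Cldn4 and Patj were called lower, a share of 12.5% and thus near the 13.3% of all genes, and Patj lost its call with scaling by library size only. Of the 16, 1 passed the level filter through Basal alone and could only come out lower. Cldn7 was low in Basal cells and in the line, at 6.28, 7.36 and 7.94 CPM against 9.38 CPM, while LP and ML had 289 and 287 CPM. Mammospheres differed from the line here, with a median of 1.32 for the same 36 genes.

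The letters CAGGTG, an E-box that Zeb and Snail factors are known to bind, were in 17 of 29 promoters of these junction genes (58.6%) and in 20.2% of all promoters, and the windows covered 20 of the 36 genes. Tight junction and polarity genes carried most of this, with 14 of 20 promoters, against 2 of 7 for adherens junctions and 1 of 2 for desmosomes. The Epcam promoter is shown (RefSeq, GRCm38.p6, chr17:87635729-87636028, plus strand) because it holds these letters at 2 places, in capitals, and belongs to a gene called lower.
Epcam: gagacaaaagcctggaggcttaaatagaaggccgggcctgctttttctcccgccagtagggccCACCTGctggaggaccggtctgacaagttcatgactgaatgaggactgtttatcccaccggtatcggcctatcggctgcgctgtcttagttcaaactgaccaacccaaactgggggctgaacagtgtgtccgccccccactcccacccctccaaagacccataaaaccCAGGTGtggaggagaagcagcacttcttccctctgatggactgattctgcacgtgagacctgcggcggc

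Factors that maintain epithelia were lower as well. Of 16 such genes, 6 were called lower and 1 higher, or 37.5% and 6.25% against 13.3% and 5.30% of all genes. The higher share was thus near that of all genes. Grhl2, which activates Cdh1 and other junction genes, was at 119, 134 and 113 CPM in the Basal libraries and at 13.5 CPM in Comma Dβ. Elf3 was at 42.3, 59.8 and 44.8 CPM against 2.08 CPM, and Ovol1 at 54.3, 35.6 and 18.5 CPM against 2.67 CPM. Esrp1, the epithelial splicing factor, was at 122, 122 and 123 CPM against 29.7 CPM, just past the threshold. Ehf, an Ets factor of luminal cells, was the gene called higher, at 7.08, 5.65 and 6.79 CPM in Basal and at 42.6 CPM in Comma Dβ, with LP at 382 CPM.

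Of 27 mesenchymal genes, 13 were called higher and 1 lower, or 48.1% and 3.70% against 5.30% and 13.3% of all genes. The median was 2.22. In mammospheres the median of this list was 1.16, with Zeb1 at 20.4 CPM and Zeb2 at 25.6 CPM. S100a4, a calcium-binding protein of motile cells, was at 4.68, 3.81 and 3.28 CPM in the Basal libraries and at 698 CPM in Comma Dβ. The factors Twist1, Zeb1 and Zeb2 were low in Basal cells and much higher in the line: Zeb1 was at 2.49, 2.39 and 3.87 CPM against 56.7 CPM, Zeb2 at 3.45, 4.14 and 5.19 CPM against 63.1 CPM, and Twist1 at 0.79, 1.38 and 1.07 CPM against 43.3 CPM. Prrx1, a mesenchymal homeobox factor, was at 15.7, 17.8 and 14.6 CPM in Basal and at 336 CPM in Comma Dβ. Snai2, the Snail factor of normal basal cells, went the other way, with 126, 89.9 and 126 CPM against 34.9 CPM and a difference of -1.69. Vim, the intermediate filament of mesenchyme, was at 301, 498 and 335 CPM against 1724 CPM, and its distance of 1.79 to the nearest Basal library missed the threshold. Cdh2, the N-cadherin often read against Cdh1, was at 35.7, 35.3 and 38.2 CPM against 93.5 CPM. The receptors Pdgfra and Pdgfrb were called higher, at 9.57, 12.4 and 12.5 CPM against 127 CPM and at 17.1, 28.4 and 24.2 CPM against 347 CPM.

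**Figure D3:**
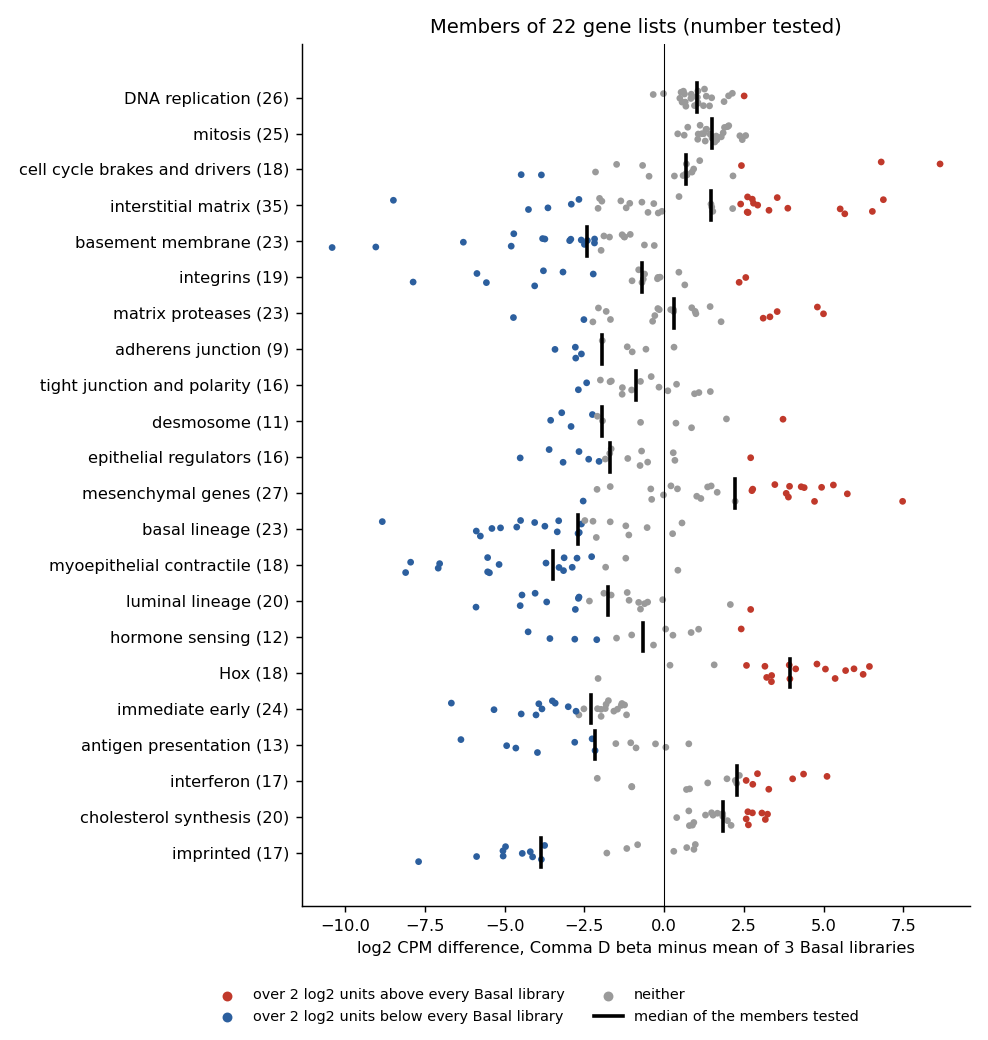
Log2 CPM difference, Comma Dβ minus the Basal mean, for each tested member of 22 gene lists, with the number tested in brackets, red and blue for genes over 2 log2 units past every Basal library, grey for the others and a black bar at the list median. Mitosis genes form a tight cluster at a median of 1.5, basement membrane genes all lie left of 0, and the interstitial matrix list reaches far to both sides.

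The contractile programme had the lowest median of the 3 lineage programmes. Of 18 genes, 15 were called lower, or 83.3% against 13.3% of all genes, none higher, and the median was -3.50. In mammospheres the median of this list was -2.78. Of the 18, 2 passed the level filter through Basal alone and could only come out lower. Myh11, the smooth muscle myosin heavy chain, was at 2983, 4765 and 4039 CPM in the Basal libraries and at 15.6 CPM in Comma Dβ. Cnn1, which encodes calponin, was at 697, 1293 and 768 CPM against 6.68 CPM, and Oxtr, the oxytocin receptor through which milk ejection is triggered, at 304, 751 and 261 CPM against 2.84 CPM. Acta2, which encodes smooth muscle actin, kept 503 CPM against 5341, 7827 and 6737 CPM in Basal and 58.1 and 25.9 CPM in LP and ML, so that Comma Dβ lay between basal and luminal cells. Mammospheres had Acta2 at 131 CPM. Basal 2 was the highest Basal library for 16 of the 18 genes. Cald1, a caldesmon shared with non-muscle cells, was at 874, 1009 and 1170 CPM in Basal and at 1361 CPM in Comma Dβ.

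Basal lineage genes were lower but in part still expressed. Of 23 genes, 14 were called lower, or 60.9% against 13.3% of all genes, and none higher, with a median of -2.70. Of the 23, 1 passed the level filter through Basal alone and could only come out lower. In mammospheres the median of this list was -2.09. Krt5 was at 3148, 3563 and 2992 CPM in the Basal libraries and at 496 CPM in Comma Dβ, against 13.2 and 57.2 CPM in LP and ML. Krt14 was at 4382, 5092 and 4879 CPM against 468 CPM, and Trp63 at 355, 472 and 230 CPM against 53.3 CPM. For these 3 genes the line lay below every Basal library and above the LP and ML means. Krt17 was at 2613, 2986 and 3024 CPM against 81.8 CPM, and Krt15 at 1342, 1012 and 887 CPM against 17.9 CPM, so that both differed by more. Mammospheres had Krt17 at 1906 CPM and Krt15 at 4.11 CPM. Sox10, a factor of multipotent mammary cells, was at 146, 134 and 160 CPM in Basal and at 0.28 CPM in Comma Dβ. Lgr5, a receptor of the Wnt pathway that marks stem cells in several tissues, was at 65.3, 116 and 73.4 CPM against 1.90 CPM. Id4, a negative regulator of luminal commitment, and Dkk3 stayed within the Basal range, Id4 at 87.6, 126 and 49.8 CPM against 121 CPM.

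The luminal programme was lower too, from a lower start. Of 20 luminal genes, 8 were called lower and 1 higher, or 40% and 5% against 13.3% and 5.30% of all genes. The higher share was thus near that of all genes. The median was -1.78. Krt8 was at 322, 420 and 365 CPM in the Basal libraries and at 16.7 CPM in Comma Dβ, against 4144 and 4460 CPM in LP and ML. Krt18, the partner of Krt8, was at 84.1, 145 and 89.4 CPM in Basal and at 46 CPM in Comma Dβ, so that the partners differed in extent. Krt19 was at 89.5, 118 and 90.1 CPM against 5.92 CPM. Krt7 was higher, at 13.6, 20.5 and 12.8 CPM in Basal and at 64.4 CPM in Comma Dβ, without passing the threshold. Gata3, the main luminal transcription factor, was at 80.1, 94.4 and 104 CPM against 60.2 CPM. In mammospheres the same 20 genes had a median of 3.08. Of 12 genes of hormone-sensing cells, 4 were called lower and 1, Greb1, higher, or 33.3% and 8.33%. Of the 12, 1 passed the level filter through Basal alone and could only come out lower. Esr1, the estrogen receptor, was at 11.9, 11.7 and 12.7 CPM in Basal and at 12.5 CPM in Comma Dβ. Of 10 milk genes tested, 1 of which passed the filter through Basal alone, 7 were called lower, a share of 70%. Csn2 was at 26.7, 17.5 and 22.8 CPM against 1.21 CPM, below the LP mean of 2706 CPM.

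The lineage lists also differed between replicates of LP and ML. The shift of the batch 3 replicate from the others was averaged over LP and ML. Its median was 0.45 for the basal lineage list, 0.44 for the contractile list and -0.85 for milk genes. For Krt5, Krt14, Krt17 and Trp63 the shift was negative in LP and positive in ML, with Krt5 at -0.18 and 3.34. For Krt15 and Acta2 it was positive in both. Krt5 was at 13.4, 14.8 and 143 CPM in ML 1, 2 and 3. With the mean shift taken from Comma Dβ, the basal median was -4.07, and 2 rather than 7 milk genes were called lower. For genes such as Krt5 that shift rested on the ML library of batch 3, and its cause was not tested. Batch 3 holds no Basal library, so no comparison within a batch was possible.

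Several Hox and T-box genes that were low in Basal cells were higher in the line. Of 39 Hox genes, 18 passed the level filter, 13 of them through Comma Dβ alone, and 15 were called higher and none lower. Because those 13 could only come out higher, the count is not a measure of the family. Hoxb9 was the highest, at 0.79, 1.59 and 1.20 CPM in the Basal libraries and at 39.7 CPM in Comma Dβ. Hoxb6, Hoxb7 and Hoxb8 were below 0.13 CPM in every Basal library and at 6.85, 5.26 and 8.62 CPM in Comma Dβ, whereas Hoxb3 was at 24.8, 22.7 and 15.7 CPM against 23.5 CPM. Most Hoxc genes and all Hoxd genes stayed under 0.5 CPM in the line. Of the 17 T-box genes, 9 passed the filter, 3 of them through Comma Dβ alone and 3 through Basal alone, which set their direction, and 3 were called higher and 2 lower. Tbx18 was at 0.22, 0.37 and 0.43 CPM in Basal and at 76.7 CPM in Comma Dβ, while Tbx2 was at 48.0, 36.4 and 30.3 CPM against 0.21 CPM. The cardiac factors Gata4 and Isl1 were at 0 in Basal and at 0.48 and 1.56 CPM in Comma Dβ, at least 8.32-fold and 26.7-fold higher. Of 9 cardiac factors tested, 4 passed the filter through Comma Dβ alone and 2 through Basal alone, which set their direction. Of the 9, 4 were called higher and 1 lower, 5 lay below every Basal library and the median was -0.36. All 15 listed cardiac factors summed to 374 to 434 CPM in Basal and 272 CPM in Comma Dβ. Tbx3, a regulator of mammary placode formation, was at 26.2, 28.1 and 23.4 CPM against 54.6 CPM.

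**Figure D4:**
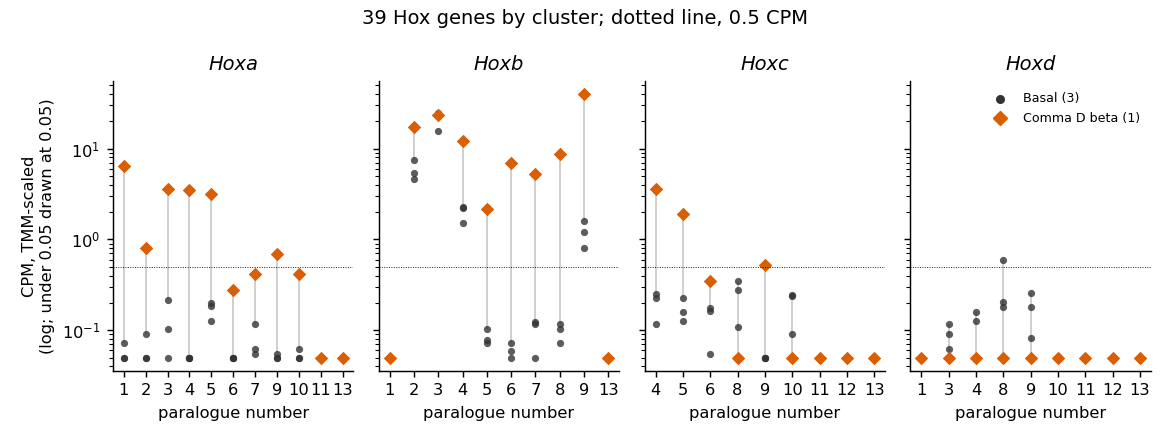
TMM-scaled CPM (log axis, values under 0.05 drawn at 0.05) of 39 Hox genes by cluster and paralogue number, in the 3 Basal libraries (grey points) and the Comma Dβ library (orange diamonds), with a dotted line at 0.5 CPM. The Hoxb cluster carried the highest levels, with Hoxb9 at 39.7 CPM, and the Hoxd cluster stayed under the line in Comma Dβ.

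Genes of no single kind made up the other largest higher calls. Sox2, a factor of pluripotent and neural stem cells, had 4, 0 and 0 reads in Basal 1, 2 and 3 and 742 reads in Comma Dβ, or 25.7 CPM. Eya4, a transcriptional co-activator, was at 0.14, 0.12 and 0.47 CPM against 102 CPM. Msln, which encodes mesothelin, was at 0.07, 0.08 and 0.1 CPM against 60.8 CPM, and Dkk2, a secreted Wnt antagonist, at 0.16, 0.39 and 0.36 CPM against 87.9 CPM. Ndst4, Nell2, Aldh3a1 and AI467606 were also among them, at 19 to 61.4 CPM in Comma Dβ. In all, 13 genes had at most 3 reads in each Basal library and at least 5 CPM in the line, and for Tbx20, Cdh26, Tmem74 and Sp9 this held against all 10 other libraries. In the other direction, 116 genes with a Basal mean of at least 5 CPM had at most 3 reads in Comma Dβ, 35 of them none. These 13 and 116 genes cannot be set against each other. The limit of 3 reads was 0.0542 to 0.0619 CPM and applied to each of 3 Basal libraries, but was 0.104 CPM in the 1 Comma Dβ library.

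The largest lower calls after Col4a6 were likewise mixed in kind. Serpinb11 was at 296, 186 and 199 CPM in the Basal libraries and at 0.14 CPM in Comma Dβ, and Col14a1, a collagen associated with fibrils, at 1892, 1780 and 1588 CPM against 2.46 CPM. Irx4, an Iroquois homeobox factor, was at 165, 213 and 114 CPM against 0.14 CPM, and Adamts18, a secreted protease of basal cells, at 296, 296 and 301 CPM against 0.45 CPM. Krt23, Apoc1, Wipf3 and Egfl6 were left with 1 to 3 reads each, and Emid1 and Sorcs1 with 16 and 7. Vwf, an endothelial gene, had 856, 1112 and 2458 reads in Basal and none in Comma Dβ.

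Vwf was 1 of 10 endothelial markers, all of them called lower. Because 7 of the 10 passed the level filter through Basal alone and could only come out lower, the count describes these libraries and is no measure of the list. The same holds for 5 of the 7 leukocyte, 6 of the 8 adipocyte, 2 of the 6 pericyte and 1 of the 10 fibroblast markers given next. The summed level of the endothelial markers was 104, 99.97 and 206 CPM in Basal 1, 2 and 3 and 2.94 CPM in Comma Dβ, with Vwf and Tie1 at 0 reads. The sorted Basal libraries thus contained reads of endothelial genes that were near 0 in the line, and Basal 3 contained about as many as the other Basal libraries together. Leukocyte markers summed to 16.4 to 19.9 CPM in Basal and 3.98 CPM in Comma Dβ, with 7 of 14 tested and 2 called lower, and adipocyte markers to 32.9 to 75.5 CPM and 2.35 CPM, with 4 of 8 called lower. Pericyte markers summed to 153 to 221 CPM and 51.7 CPM, with 3 of 6 called lower. Fibroblast markers went both ways, with 5 of 10 called higher and 4 lower: the collagens Col1a1, Col1a2 and Col3a1 and the Pdgf receptors were higher, whereas Lum, Dpt, Pi16 and Thy1 were lower, with Dpt at 11, 15.6 and 19.8 CPM in Basal and at 1.11 CPM in Comma Dβ. In bulk libraries, fewer cells of a type and less RNA per cell cannot be told apart, and the part of other cell types in the lower calls was not tested.

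Stress and signalling genes differed as well. All 24 immediate early genes lay below every Basal library (42.7% of all genes did) and the median was -2.30. Of the 24, 10 were called lower, or 41.7% against 13.3% of all genes. Fos was at 2220, 4138 and 1078 CPM in the Basal libraries and at 336 CPM in Comma Dβ, so that the Basal libraries differed among themselves by more than Basal 3 differed from the line. Atf3 was at 1208, 1498 and 566 CPM against 45.1 CPM, and Nr4a3 at 192, 203 and 200 CPM against 1.90 CPM. Mammospheres, also a culture, had a median of -3.25 for this list. Interferon-stimulated genes were higher, with 7 of 17 called higher (41.2% against 5.30% of all genes), none lower and a median of 2.27. Of the 17, 2 passed the level filter through Comma Dβ alone and could only come out higher. Ifit1 was at 1.41, 1.36 and 2.55 CPM in Basal and at 35.9 CPM in Comma Dβ, and Ifi44 at 0.69, 0.29 and 1.09 CPM against 22.3 CPM. Without Basal 3, 11 of these genes were called higher. Antigen presentation genes went the other way, with 7 of 13 called lower, or 53.8% against 13.3% of all genes. Of the 13, 1 passed the level filter through Basal alone and could only come out lower. H2-D1 was at 583, 557 and 566 CPM against 36.2 CPM and H2-K1 at 493, 589 and 576 CPM against 123 CPM. B2m, their shared light chain, was at 370, 410 and 447 CPM against 221 CPM. 

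All 20 genes of cholesterol synthesis and uptake lay above every Basal library (42.0% of all genes did) and the median was 1.84. Of the 20, 7 were called higher, or 35% against 5.30% of all genes. Msmo1, a sterol oxidase of the pathway, was at 35.5, 16.8 and 26 CPM in the Basal libraries and at 236 CPM in Comma Dβ. Glycolysis and ribosome biogenesis genes had medians of 0.14 and -0.11 and no call. Of 17 imprinted genes tested, 7 passed the filter through Basal alone and could only come out lower. Of the 17, 10 were called lower, or 58.8% against 13.3% of all genes, and none higher. Peg3 was at 42.3, 50.05 and 67.0 CPM against 0.21 CPM and Plagl1 at 31.0, 24.8 and 43.1 CPM against 1.8 CPM. Igf2r stayed at 156, 164 and 171 CPM against 201 CPM. Mammospheres had Peg3 at 93.9 CPM and a median of 0.42 for the imprinted list.

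Growth factor receptors differed in type. Of 26 receptor tyrosine kinases, 3 were called higher and 6 lower, or 11.5% and 23.1% against 5.30% and 13.3% of all genes. Of the 26, 3 passed the level filter through Basal alone and could only come out lower. Fgfr2, a receptor needed for mammary epithelial growth, was at 270, 256 and 237 CPM in the Basal libraries and at 23.0 CPM in Comma Dβ, and Fgfr3 at 31.0, 39.1 and 33.2 CPM against 1.59 CPM, whereas Fgfr1 was at 492, 518 and 547 CPM against 410 CPM. Ddr2, a receptor for fibrillar collagen, was at 15.7, 19 and 23.6 CPM in Basal and at 242 CPM in Comma Dβ, while Ddr1, its epithelial relative, was at 292, 294 and 270 CPM against 89.0 CPM. Met, the receptor of hepatocyte growth factor, was at 54.7, 53.8 and 106 CPM against 251 CPM. Among 28 cytokines and growth factors, 7 were called lower and 2 higher, or 25% and 7.14% against 13.3% and 5.30% of all genes. The higher share was thus near that of all genes. Cxcl14 was at 1764, 2416 and 1700 CPM in Basal and at 4.22 CPM in Comma Dβ. Of the 28, 4 passed the filter through Basal alone and 1 through Comma Dβ alone, which set their direction. Of 22 genes that respond to YAP, 5 were called higher and 3 lower and the median was -0.03. These shares were 22.7% and 13.6%, so that the lower share was near the 13.3% of all genes. Of the 22, 1 passed the filter through Comma Dβ alone and could only come out higher. Within the family of Asap1, Asap2 stayed at 52.9, 59.7 and 57.4 CPM against 60.4 CPM and the other 4 genes had differences of -1.01 to 0.47.

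Coordinates are on GRCm38. Fn1 lies on chromosome 1 from 71585473 to 71653280, Tbx20 on chromosome 9 from 24720812 to 24774303 and Cdh1 on chromosome 8 from 106603350 to 106670247. Medians by chromosome ran from -0.52 on chromosome 18 and -0.42 on chromosome 12 to 0.30 on chromosome 19 and 0.40 on chromosome 5, beside 0.01 over all genes. In mammospheres the medians of these 4 chromosomes were -0.19, 0.00, 0.07 and 0.02. On chromosome 5, 950 genes were tested, and 6.84% were called higher against 10.5% lower. Among 230 windows of 10 Mb with at least 20 genes (GRCm38), the lowest median was -2.47 on chromosome 14 from 1 to 10000000, over 22 genes, and the highest 0.97 on chromosome 5 from 50000001 to 60000000, over 20 genes. Mammospheres had medians of -1.45 and 0.30 in these windows, so that the chromosome 14 window was low in both cultures. DNA copy number was not measured. Asap1 lies on chromosome 15 from 64086840 to 64382941. Of the 4 other tested genes within 2 Mb of it, Pvt1 had a difference of 0.55, Macroh2a3 of -1.58, Cyrib of 0.02 and Efr3a of 0.56, so that none of them differed as Asap1 did.

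**Figure D5:**
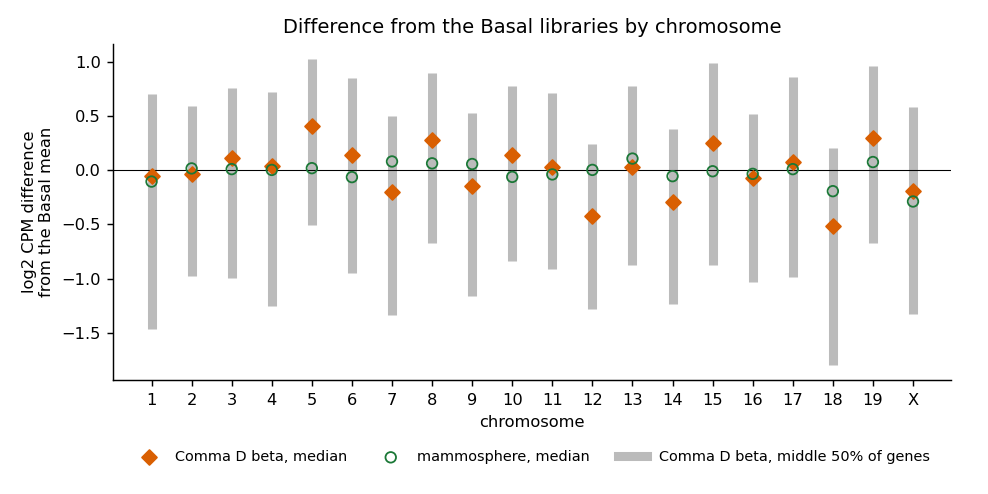
Median log2 CPM difference from the Basal mean by chromosome for Comma Dβ (orange diamonds, with grey bars for the middle 50% of genes) and for mammospheres (green circles). Comma Dβ medians ran from -0.52 on chromosome 18 to 0.40 on chromosome 5, and those of mammospheres from -0.29 on the X chromosome to 0.11 on chromosome 13.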

How the data were processed

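Reads of 100 bases, single-end, were aligned to mm10 by the authors with Rsubread and summarised per Entrez gene with featureCounts, and the deposited values are raw counts per gene. Submitters' notes also name CASAVA 1.8.0, edgeR 3.6.2 and limma 3.20.5. The TruSeq kit was used for batch 1 and its second version for batches 2 and 3. The study's methods describe the Basal samples as independent, while the labels tie none of them to an animal.

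Counts of 27179 genes were scaled by TMM (edgeR 4.0.16, R 4.3.3) over the 4 libraries and expressed as log2 CPM with a prior count of 2. The level filter was above 0.5 CPM in 1 or more of these libraries, which left 15575 genes, 634 of them through Comma Dβ alone and 1684 through Basal alone. Genes that passed through 1 side alone could not be called in the opposite direction. Names came from RefSeq GRCm38.p6 for 25275 genes. Fold limits for genes at 0 used 3 reads per library, 0.0542 to 0.0619 CPM in Basal and 0.104 CPM in Comma Dβ. Such limits cover counting error only. Calculations were tested on simulated data.

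The gene lists and their members were chosen with earlier results of these data known, whereas the libraries of the comparison were taken by label. Named genes were Fn1, Asap1, Tbx20 and Cdh1, up to 6 called members per list and direction, a fixed panel of keratins and regulators, the 12 largest calls in each direction at 10 CPM or more, and neighbours of Asap1. Other list members are named to show the range of their list and were chosen after their values were seen. Alternatives were DESeq2 1.42.0 size factors, other scalings, prior counts, filters and call rules, thinning, leaving out each Basal library, and subtraction of the batch 3 shift of LP and ML. No set or chance test was run. Some items that the rule selects are not reported here.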

Additional observations from a re-analysis of the deposited data

How the results depend on the processing

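No paired analysis was possible because the labels give no replicate numbers and the line has 1 library. Medians were rerun for the DNA replication, mitosis, interstitial matrix, epithelial adhesion, contractile, basal and luminal lists only. None of these changed sign in 84 alternatives, and 68 stayed within 1 SD of the list's main median difference. That SD was the one of the list median among the Basal libraries. The medians of the other lists were not rerun. Of 208 named genes called, 183 kept their call under every alternative and 25, Asap1 among them, lost it under at least 1. Higher calls numbered 432 when over 0.5 CPM was required in 3 of the 4 libraries, and a threshold of 1 log2 unit gave 2075 higher and 3437 lower. Leaving out each Basal library gave 832 to 900 higher and 2115 to 2200 lower calls. With scaling by library size only, the median of all genes was 0.34 and list medians were 1.801 (interstitial matrix), -0.90 (epithelial adhesion), -3.17 (contractile), -2.37 (basal) and -1.45 (luminal), each to be read against that shift. With the mean batch 3 shift of LP and ML subtracted they were 1.49 (DNA replication), -1.30 (adhesion), -4.52 (contractile), -4.07 (basal) and -1.42 (luminal). Leaving out 1 Basal library gave 1.20 to 1.5 for interstitial matrix, -1.30 to -1.22 for adhesion, -2.94 to -2.63 for basal and -1.96 to -1.68 for luminal genes. Within lists, 3 mitosis genes were called higher without Basal 1 and 2 replication genes without Basal 2. Without Basal 2, 4 proteases were called lower, and without Basal 3, 4 cytokines were called higher. Without Basal 1, 2 adipocyte markers were called lower. The cause of these differences was not tested. A level under 0.104 CPM in Comma Dβ is at most 3 reads, and differences of such genes depend on the prior count.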
